A study of Rattus norvegicus with 9 samples.

Results

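The expression of Wnt5a and of 9 genes of noncanonical Wnt signaling was followed in cultured neural stem cells (NSCs). The 10 genes, Wnt5a, Ror1, Ror2, Ryk, Fzd2, Fzd5, Vangl2, Prickle1, Celsr2 and Camk2a, were listed by name, with no threshold on a measured value. All 10 were found among the 23953 genes of the count table, and all 10 passed the filter on low counts in each of the 3 comparisons. The NSCs came from spinal cords of neonatal rats and were grown in differentiation medium in every group. The Con group received no exosomes. The Exo group received exosomes of bone marrow mesenchymal stem cells (BMSCs) that carried an empty lentiviral vector according to the study's methods, and the pLV-Exo-Wnt5a group received exosomes of BMSCs transduced with a lentiviral vector for rat Wnt5a. Each group had 3 RNA-seq libraries. The time of RNA collection is not given for these libraries.

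Wnt5a is a secreted ligand that acts mainly without β-catenin. It binds Frizzled receptors together with the co-receptors Ror1, Ror2 or Ryk, and from there one branch runs through the planar cell polarity proteins, which orient cells and their processes, and another through calcium and calcium-dependent kinases. In the developing nervous system these branches are known for roles in cell migration, axon guidance and neuronal differentiation. Only the BMSCs that gave the exosomes were transduced, so comparing pLV-Exo-Wnt5a with Exo asks whether the pathway's own transcripts differed in cells that received the modified exosomes. Transcripts made by the NSCs and transcripts carried in with exosomes cannot be told apart in these counts.

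Total counts ranged from 32765138 to 40427647 per library. Con replicate 1 stood apart in its TMM factor, which was 0.950 against 0.996 to 1.02 in the other 8 libraries. Levels are given as CPM (counts scaled to a fixed library total) after TMM normalization. Levels of single genes are compared between groups for 1 gene at a time, because CPM does not correct for gene length. Sums of CPM over gene lists, also given, carry this limit: long and abundant transcripts weigh most, and the sums do not measure shares of cells. The label of the cells was checked against marker lists. NSC markers summed to between 2645 and 3958 CPM per library, neuron markers to between 2928 and 3771 CPM, oligodendrocyte lineage markers to between 1935 and 2419 CPM and astrocyte markers to between 4896 and 6910 CPM, while microglia and macrophage markers summed to between 4.26 and 9.22 CPM. Of 18 Hox genes that mark spinal cord, 7 were in the table, and none of the 7 exceeded 3 counts in any library. These Hox genes go against the label of spinal cord, and the cells are called NSCs by their label here. In these bulk libraries, a change in the share of a cell type and a change in RNA per cell cannot be told apart.

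None of the 10 genes was called in any comparison, where a gene was called at an adjusted p (Q, Benjamini-Hochberg over all genes tested, edgeR quasi-likelihood test) under 0.05. This held in the pLV-Exo-Wnt5a against Exo comparison, in which 0.436% of 15132 tested genes were called, in the Exo against Con comparison (0.00664% of 15070) and in the pLV-Exo-Wnt5a against Con comparison (0.0862% of 15089). At an unadjusted p under 0.05, 1 of the 10 genes passed in Exo against Con (Fzd2), 1 in pLV-Exo-Wnt5a against Exo (Celsr2) and 2 in pLV-Exo-Wnt5a against Con (Fzd2 and Fzd5). The shares of all tested genes at that threshold were 14.9%, 12% and 8.35%. The 3 libraries of one group lay wholly above or below the 3 of the other for 4, 2 and 3 of the 10 genes in the same order, against 23.3%, 16.5% and 16.6% of all tested genes. In DESeq2 on the same libraries, Fzd2 was called in Exo against Con and none of the 10 in the other comparisons. The comparisons share libraries, so their counts are not independent.

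**Figure D1:**
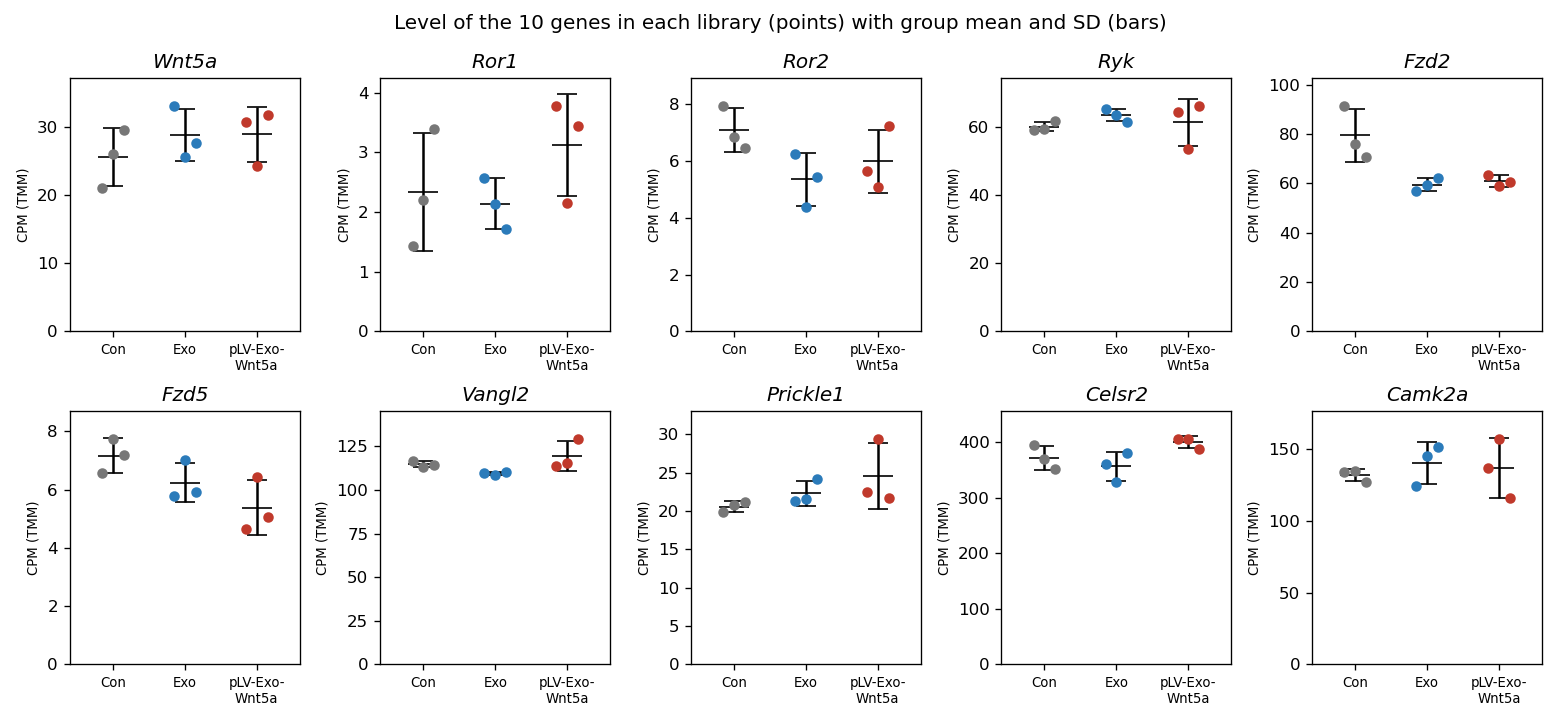
Level of each of the 10 genes in the 9 libraries, in CPM on a linear axis that starts at 0; points are libraries in replicate order, and bars give the group mean and SD (n = 3). All 3 Con values lie above the other 6 for Fzd2 and below them for Prickle1, and all 3 Exo values lie below the other 6 for Vangl2.

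Wnt5a (NCBI gene number 22418) was measured in every library, with counts from 801 to 1310. Its level was 21.1, 26.1 and 29.6 CPM in Con replicates 1 to 3, 33.2, 25.7 and 27.7 CPM in the Exo group, and 30.8, 24.3 and 31.7 CPM in the pLV-Exo-Wnt5a libraries. The group means were 25.6 ± 4.27, 28.9 ± 3.87 and 28.9 ± 4.05 CPM (SD, n = 3 each). The lowest value belonged to Con replicate 1 and the highest to Exo replicate 1, and the ranges of the 3 groups overlapped. The highest library of the Con group exceeded its lowest 1.4-fold, more than the 1.13-fold between the highest and lowest group means.

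In pLV-Exo-Wnt5a against Exo, the log2 fold change (log2FC) of Wnt5a was 0.01 (standard error 0.124, 95% interval -0.26 to 0.29, Q = 0.983, edgeR). Against the Con group, the log2FC was 0.17 in the Exo group (95% interval -0.15 to 0.50, Q = 0.557) and 0.18 in the pLV-Exo-Wnt5a group (95% interval -0.15 to 0.50, Q = 0.755). None of the 3 passed the test. For the gene that was overexpressed in the donor BMSCs, a log2FC above 0.29 between NSCs given the modified and the control exosomes lies outside the interval. Mesenchymal markers, which the donor BMSCs would carry, summed to 155 to 164 CPM in the Exo libraries and to 134 to 147 CPM in the pLV-Exo-Wnt5a libraries, against 147 to 177 CPM in Con. Of the 8, Thy1, which neurons express too, held most of the sum (131, 137 and 117 CPM in Con, Exo and pLV-Exo-Wnt5a cells), while Lum and Eng had means of 0.0251 and 0.0504 CPM in Exo, under the level of 3 counts, and of 0.144 and 0.272 CPM in the pLV-Exo-Wnt5a libraries. The 6 mesenchymal markers tested in pLV-Exo-Wnt5a against Exo were divided, 3 above and 3 below 0, with none called in edgeR. Their part in the Wnt5a level was not tested. The paralog Wnt5b, another noncanonical ligand, was at 13.1, 14.4 and 14.5 CPM in the Exo libraries and at 20.6, 18.9 and 28.3 CPM in the pLV-Exo-Wnt5a libraries. All 3 values of the latter group were the higher ones, but the difference did not pass the test in edgeR (log2FC 0.70, standard error 0.147, Q = 0.0717). It passed in 4 of the 13 alternatives, DESeq2 among them (Q = 0.00106).

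Ror1 and Ror2 are receptor tyrosine kinase-like proteins that bind Wnt5a. Ror1 (gene number 26563) was the most variable of the 10 genes, with only 54 to 150 counts per library. It was at 1.42, 2.21 and 3.39 CPM in the Con group, 2.58, 2.14 and 1.72 CPM in the Exo group and 3.79, 2.16 and 3.44 CPM in the pLV-Exo-Wnt5a libraries. The Con libraries alone covered a 2.38-fold range, wider than the 1.46-fold between the highest and lowest group means, and all groups overlapped. In pLV-Exo-Wnt5a against Exo its log2FC was 0.56 (standard error 0.266, 95% interval -0.03 to 1.14, Q = 0.449). In the other comparisons it was -0.12 for Exo against Con (Q = 0.864) and 0.42 for pLV-Exo-Wnt5a against Con (Q = 0.727), with intervals as wide as -0.85 to 0.61 in the first.

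Ror2 (gene number 26564) was at 7.96, 6.86 and 6.48 CPM in the Con group, 6.25, 4.37 and 5.45 CPM in the Exo group and 5.66, 5.07 and 7.24 CPM in the pLV-Exo-Wnt5a libraries. All 3 Exo values lay below the 3 Con values, by a narrow gap between 6.25 and 6.48 CPM. The difference did not pass the test (log2FC -0.41, 95% interval -0.81 to 0.00, unadjusted p = 0.0509, Q = 0.337, edgeR). The pLV-Exo-Wnt5a values overlapped both other groups, with log2FC of 0.17 against Exo (Q = 0.789) and -0.25 against Con (Q = 0.723). The highest mean of Ror1 was in the pLV-Exo-Wnt5a group (3.13 ± 0.860 CPM) and that of Ror2 in the Con group (7.10 ± 0.773 CPM), while the Exo group had the lowest mean of both (2.14 ± 0.431 and 5.36 ± 0.944 CPM).

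Ryk (gene number 20187), a Wnt receptor with an inactive kinase domain, had the smallest ratio between the highest and lowest group means of the 10 genes, 1.06. It was at 59.3, 59.5 and 61.8 CPM in the Con group, 65.3, 63.5 and 61.6 CPM in the Exo group and 64.4, 53.6 and 66.3 CPM in the pLV-Exo-Wnt5a libraries. Both the lowest and the highest of the 9 values were found among the pLV-Exo-Wnt5a libraries. The 3 log2FC lay between -0.04 and 0.08, and the widest 95% interval, that of pLV-Exo-Wnt5a against Con, ran from -0.19 to 0.25 (Q = 0.952).

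Fzd2 and Fzd5 are Frizzled receptors, the seven-pass membrane proteins that bind Wnt ligands. Fzd2 (gene number 57265) was at 91.5, 75.9 and 70.8 CPM in the Con group, 56.8, 59.5 and 62.1 CPM in the Exo group and 63.3, 58.9 and 60.7 CPM in the pLV-Exo-Wnt5a libraries. All 3 Con libraries lay above the other 6, and Con replicate 1 was the highest. Fzd2 was the only one of the 10 genes for which the ratio of the highest to the lowest group mean (1.34) exceeded the widest ratio between libraries of 1 group (1.29). The log2FC was -0.42 in Exo against Con (standard error 0.104, 95% interval -0.65 to -0.18, unadjusted p = 0.00249, Q = 0.265, edgeR) and -0.38 in pLV-Exo-Wnt5a against Con (standard error 0.108, 95% interval -0.62 to -0.15, unadjusted p = 0.00413, Q = 0.418). By unadjusted p, Fzd2 ranked 122 among the 15070 genes tested in Exo against Con. In pLV-Exo-Wnt5a against Exo its log2FC was 0.04 (95% interval -0.10 to 0.19, Q = 0.852).

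The 2 comparisons of Fzd2 with the Con group share the Con libraries. In Exo against Con, Q was 0.0337 without the filter on low counts, 0.0481 in DESeq2 and 0.0424 without Con replicate 3, and it was above 0.05 in the other alternatives of 13 tried. Without Con replicate 1 the log2FC was -0.31 (Q = 0.181) in Exo against Con and -0.27 (Q = 0.254) in pLV-Exo-Wnt5a against Con. The sum of the NSC markers was 3113 to 3336 CPM in the Con libraries and 2645 to 3109 CPM in the Exo libraries, where 7 of 8 markers had a log2FC below 0. Among these 7, Pax6 had no real difference (log2FC -1.2e-05). In the pLV-Exo-Wnt5a libraries the sum was 3011 to 3958 CPM and 6 of 8 had a log2FC above 0 against Con, while Fzd2 was below Con in both. The NSC marker Hes5 was also below Con in both comparisons, at 169 (Con), 137 (Exo) and 128 CPM (pLV-Exo-Wnt5a). Its log2FC was -0.30 and -0.41 (Q = 0.265 and 0.224, edgeR). Vim held the largest part of the sum, with group means of 1732, 1335 and 2043 CPM in mean sums of 3187, 2802 and 3516 CPM. None of the 8 NSC markers was called in edgeR in either comparison. Of the other marker lists in Exo against Con, a log2FC above 0 was found for 7 of 8 neuron markers (median 0.28, with 4 at an unadjusted p under 0.05), 5 of 8 astrocyte markers, 2 of 7 oligodendrocyte lineage markers, 0 of 5 microglia and macrophage markers (median -0.45, with 2 at that threshold) and 5 of 6 mesenchymal markers, and none of them was called in edgeR. The mesenchymal marker Pdgfrb was the exception in its list, at 17.2 CPM in Con and 10.3 CPM in Exo (log2FC -0.74, Q = 0.265). The part of these markers in the Fzd2 levels was not tested.

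Fzd5 (gene number 14367) was at 6.57, 7.75 and 7.17 CPM in the Con group, 5.79, 7.01 and 5.93 CPM in the Exo group and 4.65, 6.44 and 5.06 CPM in the pLV-Exo-Wnt5a libraries. The means were ordered Con (7.16 ± 0.594 CPM), Exo (6.24 ± 0.664 CPM) and pLV-Exo-Wnt5a (5.38 ± 0.938 CPM), but Exo overlapped both neighbours. All pLV-Exo-Wnt5a values were below all Con values, by 6.44 against 6.57 CPM at the nearest. This difference passed only before adjustment (log2FC -0.41, standard error 0.186, 95% interval -0.82 to -0.01, unadjusted p = 0.0463, Q = 0.595, edgeR). The other 2 log2FC were -0.20 in Exo against Con (Q = 0.542) and -0.21 in pLV-Exo-Wnt5a against Exo (Q = 0.700).

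Vangl2, Prickle1 and Celsr2 belong to the core of the planar cell polarity pathway: Vangl2 is a membrane protein, Prickle1 its cytoplasmic partner and Celsr2 a large cadherin that links neighbouring cells. Vangl2 (gene number 93840) was at 116, 113 and 114 CPM in the Con group, 110, 109 and 110 CPM in the Exo group and 114, 116 and 129 CPM in the pLV-Exo-Wnt5a libraries. The Exo libraries (109.6 ± 0.761 CPM) had the lowest coefficient of variation of the 10 genes in that group, 0.694%, and lay below all 6 other libraries. The differences were small, with log2FC of -0.06 in Exo against Con (95% interval -0.22 to 0.09, Q = 0.648) and 0.14 in pLV-Exo-Wnt5a against Exo (95% interval -0.01 to 0.28, Q = 0.459). The means of Con and Exo were 114.7 and 109.6 CPM. The third comparison gave a log2FC of 0.06 (Q = 0.852), and replicate 3 of the pLV-Exo-Wnt5a group was the highest of all.

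Prickle1 (gene number 106042) was at 19.9, 20.8 and 21.2 CPM in the Con group, 21.3, 21.5 and 24.2 CPM in the Exo group and 22.4, 29.5 and 21.7 CPM in the pLV-Exo-Wnt5a libraries. All 6 libraries with exosomes were above the 3 Con libraries, the nearest by 21.3 against 21.2 CPM. Neither comparison with Con passed the test: the log2FC was 0.12 in the Exo group (95% interval -0.13 to 0.36, Q = 0.597) and 0.25 in the pLV-Exo-Wnt5a group (95% interval -0.05 to 0.56, Q = 0.650). Between the 2 exosome groups the log2FC was 0.14 (Q = 0.720), and it was -0.01 without pLV-Exo-Wnt5a replicate 2, the highest library.

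Celsr2 (gene number 53883) was at 394, 370 and 351 CPM in the Con group, 360, 328 and 380 CPM in the Exo group and 406, 405 and 388 CPM in the pLV-Exo-Wnt5a libraries. The pLV-Exo-Wnt5a libraries were all above the Exo libraries and overlapped the Con libraries. The log2FC of 0.17 against Exo was the only one among the 10 genes in this comparison whose 95% interval did not include 0 (0.03 to 0.31, standard error 0.0630, unadjusted p = 0.0189), and it did not pass after adjustment (Q = 0.307, edgeR). The range over the 13 alternatives was 0.11 to 0.22. In the comparisons with Con the log2FC was -0.06 for Exo (Q = 0.724) and 0.10 for pLV-Exo-Wnt5a (Q = 0.727).

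Camk2a (gene number 12322) encodes a subunit of calcium/calmodulin-dependent kinase II, a neuronal kinase in the calcium branch. Its level was 134, 134 and 127 CPM in the Con group, 124, 145 and 151 CPM in the Exo group and 137, 157 and 116 CPM in the pLV-Exo-Wnt5a libraries. The SD was 4.05 CPM in Con, 14.3 CPM in Exo and 20.8 CPM in pLV-Exo-Wnt5a, while the means lay between 131.8 and 140.2 CPM. The difference in spread was not tested. The log2FC was 0.09 in Exo against Con (Q = 0.614), -0.03 in pLV-Exo-Wnt5a against Exo (95% interval -0.27 to 0.20, Q = 0.940) and 0.05 in pLV-Exo-Wnt5a against Con (Q = 0.911). The lowest and the highest of the 9 libraries were both in the pLV-Exo-Wnt5a group.

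**Figure D2:**
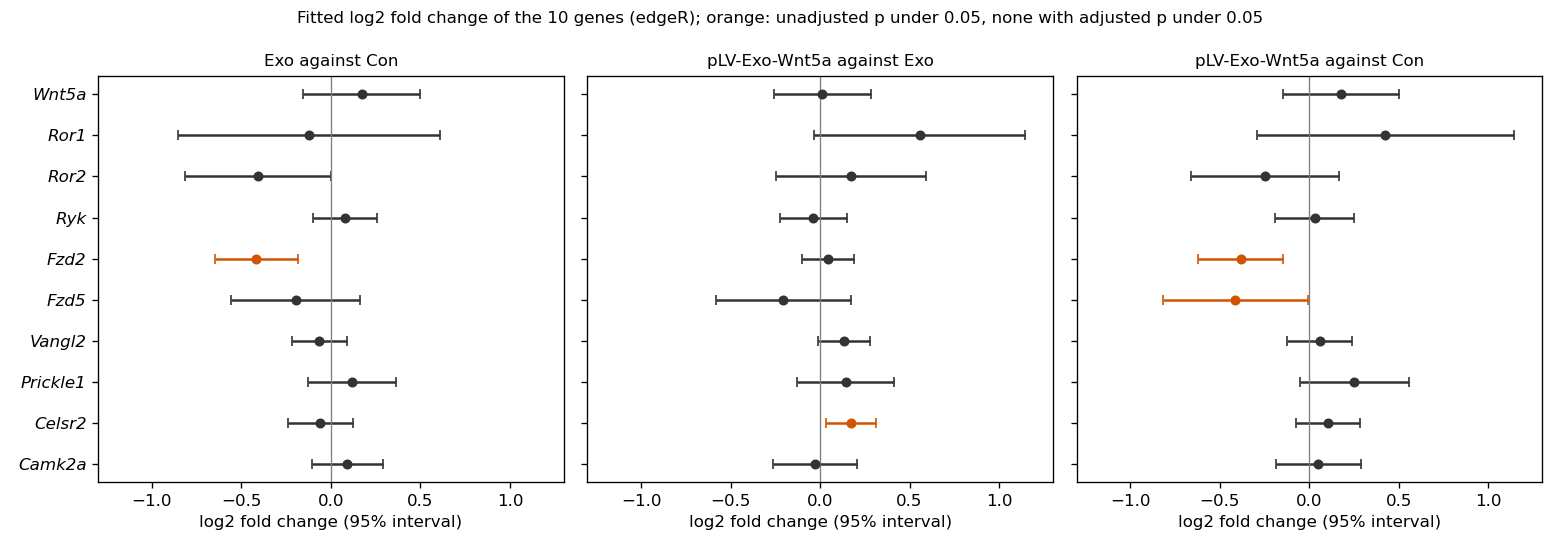
Fitted log2FC of the 10 genes with 95% intervals (horizontal axis, edgeR, 3 against 3 libraries) in the 3 comparisons. Intervals that do not include 0 at an unadjusted p under 0.05 are orange: Fzd2 in both comparisons with Con, Celsr2 in pLV-Exo-Wnt5a against Exo and Fzd5 in pLV-Exo-Wnt5a against Con; none has Q under 0.05.

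Over the 10 genes, the median log2FC was -0.06 in Exo against Con, 0.09 in pLV-Exo-Wnt5a against Exo and 0.05 in pLV-Exo-Wnt5a against Con, beside medians of 0.00 over all tested genes in each comparison. In these comparisons 4, 7 and 7 of the 10 genes had a log2FC above 0. The largest in size were -0.42 for Fzd2, 0.56 for Ror1 and 0.42 for Ror1 in the same order. For 9 of the 10 genes, the widest ratio between libraries of 1 group exceeded the ratio between the highest and lowest group means. Con replicate 1 was the lowest or highest library for 5 of the 10 genes (Wnt5a, Ror1, Ror2, Fzd2 and Prickle1), and each of the other 8 libraries was so for 3 genes or fewer.

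**Figure D3:**
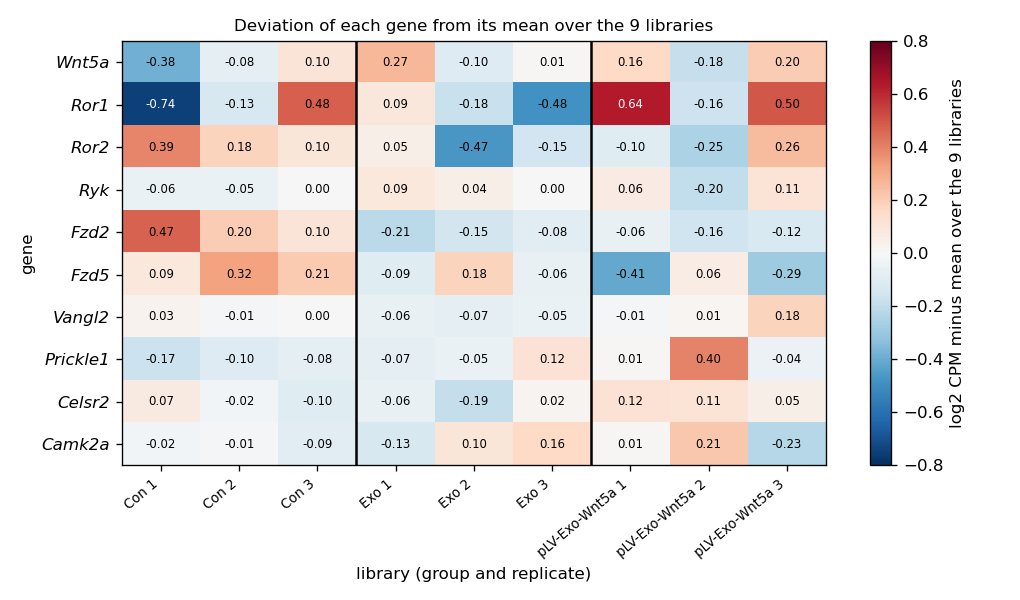
Deviation of each gene (rows) from its own mean over the 9 libraries (columns), on the log2 CPM scale, with the value printed in each cell; black lines separate the groups. Ror1 runs from -0.74 in Con replicate 1 to 0.64 in pLV-Exo-Wnt5a replicate 1, while every value of Vangl2 lies between -0.07 and 0.18.

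Among the 15458 genes with enough counts over all 9 libraries, those whose log2 CPM followed Wnt5a most closely were Vcl (vinculin), Ctnnb1 (β-catenin), Slc38a1 (an amino acid transporter), Klf3 (a transcription factor) and Anp32e (a histone chaperone). Pearson's r with Wnt5a was 0.975 for Vcl and 0.966 for Ctnnb1, then 0.964, 0.960 and 0.952 for the other 3. Without Con replicate 1 and Exo replicate 1, the 2 libraries with the most extreme Wnt5a levels, r was 0.929 for Vcl and 0.914 for Ctnnb1. These values are a description: the genes were picked for them out of all genes, and the points share library, depth and normalization. Of the other 9 genes, Ror1 (r = 0.79) and Ryk (r = 0.72) went with Wnt5a across the 9 libraries. By this r, Ror1 ranked 722 and Ryk 1414 among the 15458 genes, so many other genes followed Wnt5a more closely. Without the same 2 libraries, r was 0.78 for Ror1 and 0.79 for Ryk. Fzd2 went the opposite way (r = -0.63), but its r was 0.08 without them, so the relation rests on those 2 libraries. Camk2a (r = -0.55) and Fzd5 (r = -0.54) were also opposite, with r of -0.78 and -0.67 without them. Ror2, Vangl2, Prickle1 and Celsr2 had r between -0.14 and 0.11, and without the same 2 libraries r was 0.59 for Ror2, 0.54 for Vangl2, -0.51 for Prickle1 and 0.20 for Celsr2.

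The 10 genes were also set beside 88 other genes of Wnt signaling, arranged in lists by role, of which 75, 76 and 77 were tested in Exo against Con, pLV-Exo-Wnt5a against Exo and pLV-Exo-Wnt5a against Con. In Exo against Con and in pLV-Exo-Wnt5a against Con none was called in edgeR, with 23 and 9 at an unadjusted p under 0.05, whereas DESeq2 called 6 (Fzd2 among them) and 1 genes of the lists with the 10 genes included. In pLV-Exo-Wnt5a against Exo 1 was called higher and 1 lower, the secreted inhibitor-family gene Dkk3 and the protein kinase C gene Prkcb, with 15 at an unadjusted p under 0.05 and 4 called in DESeq2. The median log2FC of the tested genes was 0.03, -0.02 and 0.00 in the 3 comparisons. These counts stand beside the 0.00664%, 0.436% and 0.0862% of all tested genes that were called, and the unadjusted counts beside 14.9%, 12% and 8.35%.

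Dkk3, which belongs to the Dickkopf family of secreted Wnt modulators, was at 217, 209 and 230 CPM in the Con group, 165, 152 and 150 CPM in the Exo group and 208, 197 and 233 CPM in the pLV-Exo-Wnt5a libraries. The Exo libraries lay below the other 6. Dkk3 rose in pLV-Exo-Wnt5a against Exo (log2FC 0.46, standard error 0.0734, Q = 0.0246, edgeR). The call was lost without Exo replicate 2 (Q = 0.209), Exo replicate 3 (0.0599), pLV-Exo-Wnt5a replicate 1 (0.0868) or pLV-Exo-Wnt5a replicate 3 (0.0596). In Exo against Con the log2FC was -0.49 (Q = 0.106), with Q of 0.000905 in DESeq2.

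Prkcb, a calcium-dependent protein kinase C, was at 81.6, 124.5 and 135.3 CPM in the Con group, 128, 131 and 124 CPM in the Exo group and 89.4, 93.6 and 102.5 CPM in the pLV-Exo-Wnt5a libraries. It fell by 0.41 on the log2 scale in pLV-Exo-Wnt5a against Exo (standard error 0.0669, Q = 0.0258, edgeR), while the Con libraries covered both groups. The call was lost without Exo replicate 1 (Q = 0.0513), Exo replicate 2 (0.161), pLV-Exo-Wnt5a replicate 1 (0.134) or pLV-Exo-Wnt5a replicate 2 (0.0674), and in the fit on all 9 libraries (0.464).

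Single cell type markers were also called in this comparison. The sum of the 8 astrocyte markers was 4896 to 4955 CPM in the Exo libraries and 6562 to 6910 CPM in the pLV-Exo-Wnt5a libraries, with means of 4931 and 6710 CPM. Gfap, the intermediate filament of astrocytes, was the only one called and rose from 2227 to 4024 CPM (log2FC 0.86, Q = 3.36e-05). Of the 8, 3 had a log2FC above 0 and 5 below (median -0.16), Slc1a3, Slc1a2 and Gja1 were lower at an unadjusted p under 0.05 (Q = 0.184, 0.176 and 0.282, edgeR), and none was at 0. Of the 8 neuron markers, 3 had a log2FC above 0 and 5 below (median -0.01), and Dcx, a microtubule protein of young neurons, was the only one called, from 110.3 to 72.5 CPM (Q = 0.0113). Map2 was also lower at an unadjusted p under 0.05, from 195 to 139 CPM (log2FC -0.48, Q = 0.0759, edgeR). Of the 8 NSC markers, 5 had a log2FC above 0 and 3 below (median 0.05), and the intermediate filament gene Vim was the only one called, from 1335 to 2043 CPM (Q = 0.0389). Nes was also higher at an unadjusted p under 0.05 (log2FC 0.54, Q = 0.212, edgeR). The 8 microglia and macrophage markers summed to 4.26 to 5.32 CPM in the Exo libraries and 7.05 to 9.22 CPM in the pLV-Exo-Wnt5a libraries. Of these 8, 5 passed the filter on low counts and all 5 had a log2FC above 0 (median 0.65), with none called in edgeR. The largest difference among the 5 was that of Csf1r, a macrophage growth factor receptor, at 0.674 CPM in Exo and 2.48 CPM in pLV-Exo-Wnt5a (log2FC 1.88, unadjusted p = 0.000431, Q = 0.0640, edgeR). None of the tested oligodendrocyte lineage (7) or mesenchymal (6) markers was called in this comparison. The part of these cell type markers in the changes of Dkk3 and Prkcb was not tested.

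By role, the list of Wnt ligands held 19 genes, of which 17 were in the table and 9, 9 and 10, Wnt5a included, were tested in the 3 comparisons, with none called in edgeR. Wnt7b had group means of 346 (Con), 290 (Exo) and 301 CPM (pLV-Exo-Wnt5a), and those of Wnt7a were 66.5, 63.6 and 66.4 CPM. Wnt4 was at 8.12, 7.30 and 8.86 CPM in the Exo libraries and at 5.66, 6.14 and 4.65 CPM in the pLV-Exo-Wnt5a libraries, which did not overlap (log2FC -0.55, Q = 0.168 in edgeR and 0.0383 in DESeq2). Wnt5b and Wnt4 lay on opposite sides of 0 in this comparison.

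All 10 Frizzled genes were tested, and 7 of the 10 had a log2FC below 0 both in Exo against Con and in pLV-Exo-Wnt5a against Con, which share the Con libraries. The median log2FC of the family was -0.20 and -0.21 in these comparisons and 0.01 in pLV-Exo-Wnt5a against Exo. At an unadjusted p under 0.05 there were 2, 3 and 0 of the 10, and none was called in edgeR. Fzd8 was at 23.3, 20.3 and 20.2 CPM in the Con group, 15.2, 13.9 and 15.5 CPM in the Exo group and 15.5, 17.5 and 14.8 CPM in the pLV-Exo-Wnt5a libraries. The Con libraries were the 3 highest, as they were for Fzd2, with log2FC of -0.52 in Exo against Con (Q = 0.265) and -0.42 in pLV-Exo-Wnt5a against Con (Q = 0.480). The family summed to 222 to 249 CPM in the Con libraries, 196 to 201 CPM in the Exo libraries and 193 to 207 CPM in the pLV-Exo-Wnt5a libraries, a sum in which Fzd2 itself made up 79.4, 59.5 and 60.9 CPM of the group means of 232.5, 198.9 and 200.4 CPM. In DESeq2, Fzd8 was also called in Exo against Con (Q = 0.0238). Other paralogs lay on the opposite side of 0, with Fzd3 at 12.8 CPM in Con and 15.2 CPM in Exo and Fzd1 at 25.6 and 27.5 CPM, neither past the test (Q = 0.390 and 0.648). Of the 7 co-receptors and other Wnt receptors, Ror1, Ror2 and Ryk included, none was called in edgeR or had an unadjusted p under 0.05 in any comparison.

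In the planar cell polarity core, 17 of 18 genes were tested in Exo against Con and 18 in the other comparisons, with none called in edgeR and 5, 2 and 3 at an unadjusted p under 0.05 in Exo against Con, pLV-Exo-Wnt5a against Exo and pLV-Exo-Wnt5a against Con. Celsr1, the paralog of Celsr2, was at 217, 195 and 177 CPM in the Con group, 135, 121 and 144 CPM in the Exo group and 142, 139 and 147 CPM in the pLV-Exo-Wnt5a libraries. Its Con libraries lay above the other 6, as those of Fzd2 did, whereas the Con libraries of Celsr2 overlapped both groups. The log2FC of Celsr1 was -0.55 in Exo against Con (standard error 0.0953, Q = 0.170, edgeR) and -0.46 in pLV-Exo-Wnt5a against Con (standard error 0.0910, Q = 0.152). It was called in DESeq2 in both (Q = 0.00146 and 0.00558). Vangl1, the paralog of Vangl2, was at 7.29, 7.54 and 7.05 CPM in the 3 groups, and Prickle2 at 50.1, 57.1 and 57.3 CPM, with groups that overlapped in each comparison. Dvl2, a scaffold shared by the branches of Wnt signaling, was at 51.1 CPM in Con and 43.3 CPM in pLV-Exo-Wnt5a (log2FC -0.24, Q = 0.576). It was at 43.0 CPM in Exo, with log2FC of -0.25 in Exo against Con (Q = 0.290) and 0.02 in pLV-Exo-Wnt5a against Exo (Q = 0.941, edgeR).

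Of the 11 effectors downstream of the polarity core, 9 had a log2FC above 0 in Exo against Con and 9 in pLV-Exo-Wnt5a against Con, with a median of 0.20 in each, and these comparisons share the Con libraries. In pLV-Exo-Wnt5a against Exo 4 had a log2FC above 0 and 7 below (median -0.05), with 4 of the 11 at an unadjusted p under 0.05. None was called in edgeR in any of the 3 comparisons. Daam2, which links Dishevelled to the cytoskeleton, was at 72.8, 67.1 and 75.1 CPM in the Exo libraries and 84.2, 77.2 and 85.4 CPM in the pLV-Exo-Wnt5a libraries (log2FC 0.21, Q = 0.259). In the calcium branch, 21 of 21 genes were tested, and the median log2FC was 0.07 in Exo against Con, -0.12 in pLV-Exo-Wnt5a against Exo and 0.04 in pLV-Exo-Wnt5a against Con. In the same order, 9 (7 higher and 2 lower), 5 and 2 of the 21 had an unadjusted p under 0.05, which is 42.9%, 23.8% and 9.52%, and Prkcb in pLV-Exo-Wnt5a against Exo was the only one called in edgeR. The calcineurin subunits Ppp3r1 and Ppp3ca were at 108.5 and 47.9 CPM in Con and at 158.3 and 70.7 CPM in Exo, and all 3 Exo libraries exceeded the Con libraries for both. Their log2FC was 0.55 and 0.56 (Q = 0.265 for both), and these values were 0.38 and 0.37 without Con replicate 1, the lowest library for each. Over the 13 alternatives, Q was under 0.05 in 3 for Ppp3r1 (lowest 0.00677, without the filter) and in 1 for Ppp3ca (0.0180, without the filter). In the same comparison the neuron markers Snap25, Dcx, Map2 and Stmn2 had log2FC of 0.66, 0.56, 0.45 and 0.29 (Q = 0.265, 0.275, 0.330 and 0.273, edgeR). The neuron marker sum was 3149 to 3341 CPM in Con and 3071 to 3682 CPM in Exo, and the part of these markers in the calcineurin values was not tested. In pLV-Exo-Wnt5a against Con, the log2FC of Ppp3r1 was 0.34 (Q = 0.573) and that of Nfatc4, a transcription factor activated by calcineurin, was -1.0 at 4.58 against 2.28 CPM (Q = 0.392). Nfatc4 was also below Con in the Exo group, at 2.67 CPM (log2FC -0.77, Q = 0.289, edgeR). The paralogs Camk2b and Camk2g had log2FC between -0.01 and 0.13 in the 3 comparisons, and Camk2d had group means of 39.6 (Con), 49.7 (Exo) and 45.5 CPM (pLV-Exo-Wnt5a; Q = 0.279 for Exo against Con). None of these paralogs was called in edgeR.

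**Figure D4:**
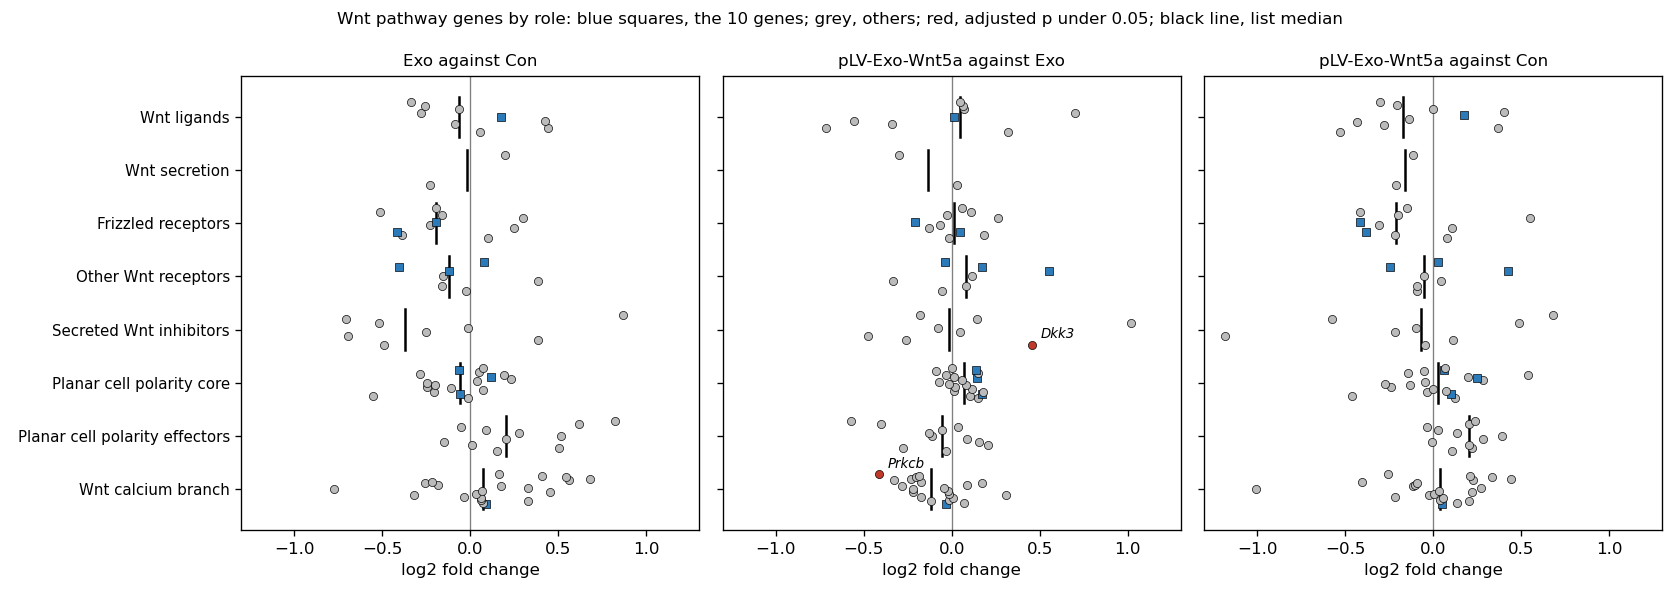
Fitted log2FC (horizontal axis, edgeR) of every tested gene of 8 lists of Wnt pathway genes (rows) in the 3 comparisons; blue squares are the 10 genes, grey circles the others, red circles genes with Q under 0.05, and black lines the list medians. The red genes, Dkk3 above 0 and Prkcb below 0, appear in pLV-Exo-Wnt5a against Exo, and Ror1 is the square farthest from 0 there.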

How the data were processed

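The 9 RNA-seq libraries comprised 3 each of Con, Exo and pLV-Exo-Wnt5a NSCs. Raw counts for each gene were deposited by the authors as whole numbers. The paper names HISAT2 for alignment after removal of low-quality reads, while the submitters' processing notes list Bowtie2, RSEM 1.3.1 and DESeq2 1.4.5 without their roles; the genome build, annotation and counting program are not given in the sources used here. Gene symbols and NCBI gene numbers are those of mouse although the cells are labelled rat, so no coordinates or lengths were used. No count column lacked a sample.

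From the deposited counts, genes kept by filterByExpr in the 6 libraries of a comparison were scaled by TMM, and the quasi-likelihood test was run in edgeR 4.0.16 (R 4.3.3) with Benjamini-Hochberg adjustment over all genes tested (Q). A gene was called at Q under 0.05. Standard errors of log2FC were derived from the F statistic. CPM values were normalized by TMM over all 9 libraries, with a prior count of 2 on the log2 scale. The scripts were tested on simulated data. Alternatives were DESeq2 1.42.0, other normalizations and filters, a fit on all 9 libraries, a replicate block, a fold change limit of 2 in either direction as in the paper's methods, an unadjusted p, and leaving out each library.

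The 10 genes, the role lists and the marker lists were chosen with earlier results of these data known. Genes named from the lists were those called in any comparison, and per comparison up to 5 genes outside the 10, called ones included, with the smallest unadjusted p under 0.05 whose groups did not overlap. Paralogs of the 10 genes could also be named. The labels give 1 batch value for all libraries, so no batch term was fitted; they do not say whether replicates came from separate cultures, so p-values measure the spread between these libraries only. A count of 0 allows a level of up to 0.0742 to 0.0916 CPM (3 counts of the library's total), which covers counting error only.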

Additional observations from a re-analysis of the deposited data

How the results depend on the processing

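The log2FC of 23 of the 30 results for the 10 genes kept their direction under all 13 alternatives, and the Exo against Con difference of Fzd2 was the only one past the threshold under any. The direction of the other 7 depended on single libraries. When single libraries were omitted, log2FC ran from -0.387 to 0.239 for Ror1 in Exo against Con; in pLV-Exo-Wnt5a against Exo from -0.0721 to 0.124 for Wnt5a, -0.105 to 0.0503 for Ryk, -0.0102 to 0.217 for Prickle1 and -0.146 to 0.0683 for Camk2a; and in pLV-Exo-Wnt5a against Con from -0.0251 to 0.124 for Ryk and -0.0586 to 0.160 for Camk2a. Wnt5a in pLV-Exo-Wnt5a against Exo was at -0.0012 in the fit on all 9 libraries.

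Counts of called genes moved more than the 10 genes did. In the order Exo against Con, pLV-Exo-Wnt5a against Exo and pLV-Exo-Wnt5a against Con, 1, 66 and 13 of all genes, 0, 2 and 0 of the Wnt lists with the 10 genes included, and 0 of the 10 genes in each were called. DESeq2 called 207, 427 and 79 of all genes, 6, 4 and 1 of the lists, and 1, 0 and 0 of the 10. Without a filter on low counts, edgeR called 446, 397 and 86, with 7, 3 and 1 of the lists and 1, 0 and 0 of the 10. An unadjusted p under 0.05 gave 2249, 1812 and 1260, with 24, 16 and 11 of the lists and 1, 1 and 2 of the 10. The fit on all 9 libraries called 5, 46 and 16, with 1 of the lists in pLV-Exo-Wnt5a against Exo. Library size without TMM gave 6 genes in pLV-Exo-Wnt5a against Con, and the fold change limit 24 genes and 0 of the lists in pLV-Exo-Wnt5a against Exo. When single libraries were omitted, the counts ran from 0 to 371, 19 to 96 and 1 to 18 for all genes, and from 0 to 5, 0 to 2 and 0 to 0 for the lists; 371 and 5 were reached without Con replicate 3, the only omission at which any of the 10 genes (1, Fzd2) was called. RLE normalization and a minimum of 10 counts in every library left all these counts within 1.5 times of their values. The causes were not tested, except that fewer libraries enter when one is left out.

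With the replicate number as a block, the replicate block fit called 0, 116 and 38 of all genes, 0, 3 and 0 of the lists and none of the 10 genes. Same-numbered libraries of different groups deviated from their group means with correlations between -0.201 and 0.0634. Pairs with different numbers were not compared, so whether same-numbered libraries share a culture or a day cannot be told. Ror1 had the lowest counts of the 10 genes, 54 to 150 per library, and how much of its spread comes from depth was not tested.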
